A study of Mus musculus with 10 samples.

Results

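The colony-stimulating factors and their receptors were followed here as 10 mouse genes out of the 41813 in the RNA tables of the series. They were chosen by name: the ligands Csf1, Csf2 and Csf3, and the receptor chains Csf1r, Csf2ra, Csf2rb, Csf2rb2, Csf3r, Flt3 and Kit. Each name matched 1 Ensembl gene. The RNA was from dendritic cells grown from mouse bone marrow, which present antigen to T cells and are labelled CD11c-positive with high MHC class II. It was sequenced in 3 libraries titled activated and 3 titled non-activated, 6 in all. The sample labels record LPS, a bacterial ligand of TLR4, for the activated cells and no stimulation for the others. The design text instead gives LPS to all dendritic cells and separates them by whether an ovalbumin peptide was loaded on them before a coculture of 24 h with OT-II CD4+ T cells, which are specific for it. The titles' terms are therefore used. No allele or strain of the dendritic cells is labelled, the growth factor in which the marrow was cultured is not named in the sources used here, and no label ties the replicates to separate mice or cultures. Summed expected counts ran from 21.3 to 27.4 M per library. Most dendritic cell markers were plentiful. Itgax, which encodes CD11c, stood at 198 to 442 CPM (counts scaled to library size, here by TMM) in activated and 295 to 437 CPM in non-activated libraries. The MHC class II gene H2-Ab1 stood at 2191 to 3118 and 2694 to 3296 CPM. Ciita, Zbtb46, Ccr7, Fscn1, Cd86 and Ly75 were higher in activated cells (edgeR adjusted p under 0.05), Fscn1 most, at a mean of 3122 against 533 CPM. Cd74 did not pass that threshold, nor did Dpp4, which was low at 6.72 against 13.5 CPM.

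Colony-stimulating factors are secreted proteins that keep myeloid cells alive and direct their growth and maturation. M-CSF (Csf1) signals through the receptor tyrosine kinase CSF1R. GM-CSF (Csf2) binds an alpha chain, CSF2RA, which pairs with a common beta chain, CSF2RB, and activates JAK2 and STAT5. G-CSF (Csf3) acts through CSF3R, mainly on neutrophils. FLT3 and KIT are receptor tyrosine kinases of the same class as CSF1R; FLT3 signals drive dendritic cell development, and KIT marks progenitors and mast cells. The mouse also has Csf2rb2, a near-copy of Csf2rb whose product pairs with the IL-3 receptor alpha chain.

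Among the 9 genes with enough reads to test, 2 were higher in activated cells (Csf1 and Csf3), 3 were lower (Csf2rb, Csf2rb2 and Kit) and 4 did not pass (Csf1r, Csf2ra, Csf3r and Flt3). Csf2 had too few reads. A gene was called at an adjusted p under 0.05 in edgeR's quasi-likelihood test over all genes, by which 27.6% of the 13946 genes tested were called, 15.9% higher and 11.7% lower in activated cells. The 5 genes called here were also those whose activated and non-activated libraries did not overlap in CPM, as was so for 44.7% of all genes tested, 23.9% with activated higher and 20.7% with activated lower. In bulk RNA such as this, fewer cells of a type and less RNA per cell cannot be told apart.

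Levels per length, in the deposited TPM (scaled to transcript length and library size), were in the order Csf2rb, Csf2rb2, Csf1r, Csf2ra, Csf1, Csf3, Kit, Flt3, Csf3r and Csf2 in activated cells. Csf2ra did not stand apart from Csf1 there, nor Csf3 from Kit or Flt3, nor Csf3r from Csf2, since their libraries overlapped. In non-activated cells the first 4 genes had the same order, followed by Kit, Csf1, Flt3, Csf3, Csf3r and Csf2, with Flt3 and Csf3 overlapping. The largest mean was 1010 TPM for Csf2rb in activated and 1366 TPM in non-activated cells. Csf1 stood above Kit in every activated library and below it in every non-activated one, though narrowly in non-activated replicate 3 (22.3 against 22.5 TPM).

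**Figure D1:**
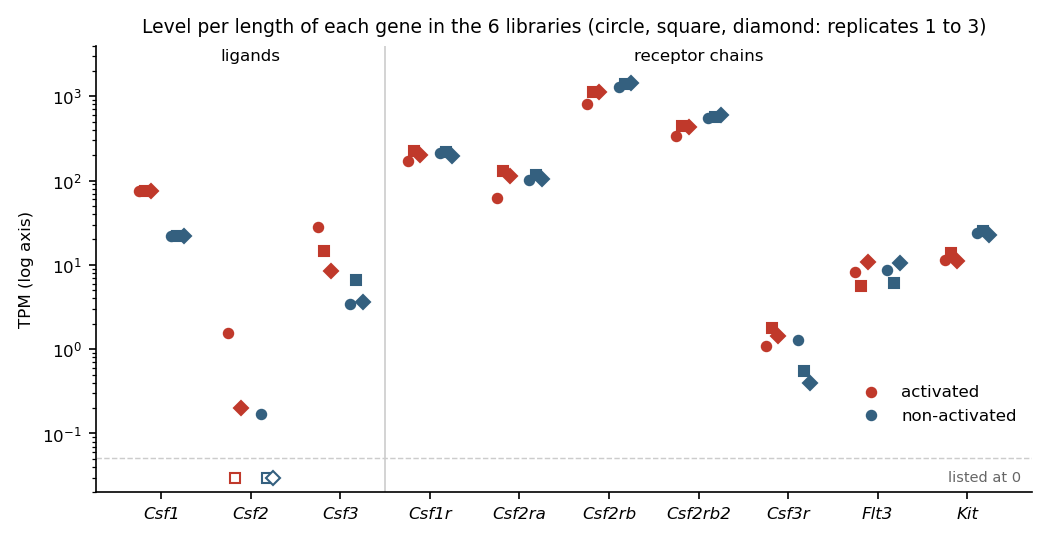
TPM of each gene on a log axis, with 1 point per library (3 activated and 3 non-activated) and open points for libraries in which the gene was listed at 0. Csf1 lies at 74.6 to 76.1 TPM in activated and 22.1 to 22.3 TPM in non-activated libraries, and the receptor chains Csf2rb and Csf2rb2 are the highest in each group; circle, square and diamond are replicates 1 to 3.

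Of the ligands, Csf1, the growth factor of macrophages and monocytes, was the most abundant. It stood at 163, 156 and 155 CPM in activated replicates 1 to 3, against 50.0, 48.4 and 44.2 CPM in the non-activated ones. The groups were far apart relative to their spread, with means of 158 ± 4.53 and 47.5 ± 3.03 CPM (SD, n = 3 each). The change was 3.33-fold (log2 1.74 ± 0.08, SE; edgeR adjusted p = 6.11e-06), and Csf1 passed under each of the 13 alternatives tried (adjusted p 3.1e-67 to 0.000155). Its gene model has 7 transcripts. The abundance-weighted transcript length that RSEM estimated was 3178 to 3344 nt in activated and 3240 to 3396 nt in non-activated libraries, ranges that overlapped, so the counts and the length-corrected TPM gave like folds.

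The start regions of 3 called genes are given because they are the DNA next to the genes that changed: Csf1 as the ligand called with the smallest adjusted p, Csf2rb2 and Kit as receptor chains that were lower. The 250 bases before the RefSeq start are shown 5′ to 3′ on the gene's strand, from RefSeq on GRCm38.p6, whose table held 7 of the 10 genes. For Csf1 these are chr3:107760470-107760719 on the minus strand, for Csf2rb2 chr15:78305722-78305971 on the minus strand, and for Kit chr5:75574737-75574986 on the plus strand. Capitals mark matches on either strand to a loose form of the NF-kB site (3 G, any 5 bases, 2 C), or to TTCNNNGAA, the core of a STAT site.
Csf1: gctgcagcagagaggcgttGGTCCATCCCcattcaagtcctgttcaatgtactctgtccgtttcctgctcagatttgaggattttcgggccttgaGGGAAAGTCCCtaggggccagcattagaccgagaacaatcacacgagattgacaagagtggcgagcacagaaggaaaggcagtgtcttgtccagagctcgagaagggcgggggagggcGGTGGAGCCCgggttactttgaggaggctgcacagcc
Csf2rb2: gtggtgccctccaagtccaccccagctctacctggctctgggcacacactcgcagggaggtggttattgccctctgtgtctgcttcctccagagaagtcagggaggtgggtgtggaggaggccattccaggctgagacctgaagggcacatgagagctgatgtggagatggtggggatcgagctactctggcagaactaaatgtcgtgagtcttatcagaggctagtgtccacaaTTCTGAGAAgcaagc
Kit: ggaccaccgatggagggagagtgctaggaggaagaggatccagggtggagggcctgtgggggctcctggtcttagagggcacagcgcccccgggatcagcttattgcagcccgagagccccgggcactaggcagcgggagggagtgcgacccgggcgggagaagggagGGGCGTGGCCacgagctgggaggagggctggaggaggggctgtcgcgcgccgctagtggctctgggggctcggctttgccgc
The NF-kB form occurred on either strand in 45.8% of the 32817 start regions of this length in the table. Csf1 held 4 matches, of which 2 overlap on opposite strands between 155 and 145 bases before the start. Kit held 1, Csf2ra 2 that overlap, and Csf3r 1, while Csf2, Csf2rb2 and Flt3 held none. TTCNNNGAA, found in 7.01% of start regions, occurred among the 7 genes in Csf2rb2, between 15 and 7 bases before the start. The AP-1 form TGANTCA (6.75% of start regions) was in none of the 7, and the GATA form AGATAA (9.99%) was in Csf2. A match of letters is a description and not a site.

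Csf3, which encodes G-CSF, was low and spread widely. It stood at 24.5, 12.4 and 6.82 CPM in activated replicates 1 to 3, against 3.01, 5.59 and 2.88 CPM in non-activated ones. The lowest activated library lay above the highest non-activated one by a small margin, and activated replicate 1 was far above the others. The change was 3.82-fold with a 95% interval of 1.84 to 7.94 (log2 1.93 ± 0.46, SE; edgeR adjusted p = 0.0154). Its log2 fold change was 1.31 without activated replicate 1, where it still passed (edgeR adjusted p = 0.0288). Csf3 no longer passed when non-activated replicate 1 (edgeR adjusted p = 0.0524), non-activated replicate 3 (0.068) or both replicate 1 libraries (0.0618, with log2 1.16) were left out, and its adjusted p lay between 0.000229 and 0.068 over the alternatives.

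Csf2, which encodes GM-CSF, was near the limit of detection. It had 18 counts in activated replicate 1, 0 in replicate 2 and 2 in replicate 3, against 2, 0 and 0 in non-activated replicates 1 to 3. The 20 counts in activated libraries (exact Poisson 95% interval 12.2 to 30.9) and 2 in non-activated ones (0.242 to 7.22) gave a ratio per library size of 9.88, with an exact interval of 2.4 to 87.2 that covers counting error alone. That interval leaves out the spread between libraries, and 1 library held nearly all the counts. Without the filter on low counts, edgeR gave log2 3.05 ± 1.43 (SE) with an adjusted p of 0.181. Il3 encodes another ligand of the beta chain and is known as a product of activated T cells. Il3 had 25 counts in the activated libraries and 0 in the non-activated ones (exact Poisson 95% interval of the expected count 0 to 3.69). Its CPM was 0.632, 0.343 and 0.0408 in activated replicates 1 to 3.

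Activated replicate 1 was the highest library for 9 of 11 T cell markers and 6 of 8 markers of activated helper T cells. Its sum over the T cell list, 52.6 CPM, lay within the non-activated range. Its sum over the helper T cell list, 22.9 CPM, was the highest of all libraries. The CD3 chains Cd3d, Cd3e and Cd3g, which define T cells, summed to 3.72, 0.54 and 0.449 CPM in activated replicates 1 to 3 and 0.533, 0.21 and 0.284 CPM in non-activated ones. Il2, the growth factor that helper T cells release on activation, stood at 8.62, 0.49 and 0.531 CPM in activated libraries, against 0, 0 and 0.0811 CPM in non-activated ones. Cd40lg, which encodes the CD40 ligand of helper T cells, stood at 1.3, 0.049 and 0.0816 CPM in activated libraries and had no count in non-activated ones. The whole list of 11 T cell markers, which includes Cd28 and Thy1 at 7.01 CPM or more in every library, summed to 39.4 to 52.6 CPM in activated and 33.2 to 60.8 CPM in non-activated libraries, and 1 of the 11 (Cd3d) was under 1 CPM in every library. The 8 markers of activated helper T cells summed to 6.82 to 22.9 CPM in activated and 13.6 to 18.3 CPM in non-activated libraries, with Il4, Il17a and Il21 under 1 CPM throughout. Cd28, a costimulatory receptor of T cells, was lowest in activated replicate 1, at 9.96 CPM beside 22.6 and 19.2 CPM in the other activated libraries, against 17.2, 42.3 and 38.4 CPM in non-activated ones. Icos, a related receptor, was lower in activated libraries, at 6.62, 4.56 and 4.12 CPM against 16.2, 11.6 and 10.8 CPM (edgeR adjusted p = 0.00354). The part of T cell RNA in the Csf1, Csf2, Il3 and Csf3 values was not tested.

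**Figure D2:**
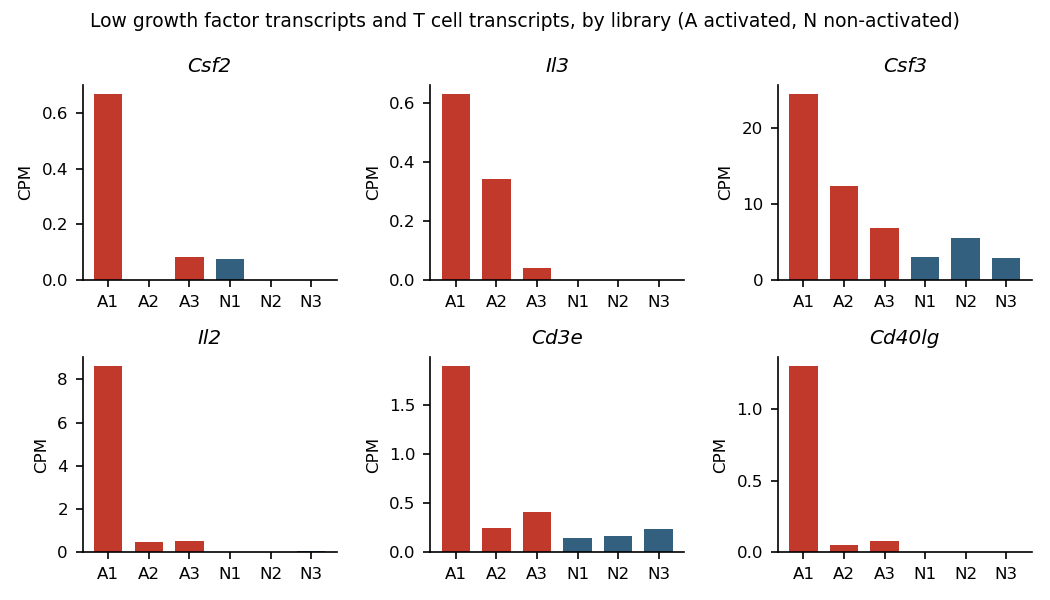
CPM of Csf2, Il3, Csf3 and 3 genes of T cells in each library, each panel with its own axis from 0; A1 to A3 are the activated and N1 to N3 the non-activated replicates. Activated replicate 1 is highest in every panel, with 8.62 CPM for Il2 and 24.5 CPM for Csf3. The T cell genes drawn are from the 9 of 11 T cell and 6 of 8 helper T cell markers highest in that library. Markers that differ are not drawn, such as Cd28, lowest there at 9.96 CPM, and Icos, highest in non-activated replicate 1 at 16.2 CPM.

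Among the receptors, Csf1r was abundant and did not pass. It stood at 468, 591 and 532 CPM in activated replicates 1 to 3, against 594, 583 and 486 CPM in non-activated ones, and the groups overlapped. The fold was 0.957 with a 95% interval of 0.79 to 1.16 (edgeR adjusted p = 0.743), so a change as large as that of its ligand lay outside the interval. The Csf1r level per length was 2.63 ± 0.349 times that of Csf1 in activated and 9.43 ± 0.677 times in non-activated libraries (ratio of TPM, SD, n = 3 each). Adam17, a protease that sheds the extracellular part of CSF1R, was 1.24-fold higher at 193 ± 3.55 against 156 ± 5.5 CPM (edgeR adjusted p = 0.0118). That call was lost on the deposited TPM and without non-activated replicate 2 or 3, with adjusted p from 0.00258 to 0.129 over all alternatives. Markers of macrophages and monocytes, cells that also carry CSF1R, summed to 2663 to 4178 CPM in activated and 3019 to 4068 CPM in non-activated libraries. None of the 11 was under 1 CPM throughout, but most of the sum was Cd14, Lyz2, Adgre1 and Cd68, and Apoe, Ccr2 and C1qa were low. Fcgr1 was lower in activated cells (43.6 against 61.6 CPM, edgeR adjusted p = 0.0454), and no other marker of this list passed.

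The common beta chain was the most abundant receptor RNA of the group and was lower in activated cells. Csf2rb stood at 2605, 3497 and 3347 CPM in activated replicates 1 to 3, against 4117, 4365 and 4214 CPM in non-activated ones. Csf2rb2 stood at 1061, 1337 and 1255 CPM in activated libraries, against 1723, 1719 and 1717 CPM in non-activated ones. Every activated library lay below every non-activated one for each gene, with activated replicate 1 the lowest. The folds were 0.744 for Csf2rb (log2 -0.43 ± 0.13, SE; edgeR adjusted p = 0.0387) and 0.708 for Csf2rb2 (log2 -0.50 ± 0.11, SE; edgeR adjusted p = 0.0116).

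Csf2rb and Csf2rb2 lie next to each other on chromosome 15 and share sequence, and RSEM divides reads that match each of them. Their expected counts were not whole in any of the 6 libraries, so how much of each count belongs to which gene is uncertain. Their sum does not depend on that division. It was 3666, 4834 and 4602 CPM in activated replicates 1 to 3, against 5839, 6084 and 5931 CPM in non-activated ones, a fold of 0.734 (log2 -0.45 ± 0.12, SE; edgeR adjusted p = 0.0276). Csf2rb2 took 29.6%, 28.3% and 27.9% of the summed TPM in activated libraries, against 30.2%, 28.9% and 29.7% in non-activated ones. The mean difference was -0.966 percentage points, and the share was lower in activated cells in each of the 3 same-numbered pairs, with differences of -0.569, -0.619 and -1.71 points. Neither the two-sided exact permutation test (p = 0.2, smallest possible 0.1) nor the exact sign-flip test over pairs (p = 0.25, its smallest possible) could pass at this number of libraries, so whether the share changed is not settled. The calls of the sum and of Csf2rb alone rested on several libraries: neither passed on the deposited TPM, nor when activated replicate 3 or any one of the non-activated replicates was left out. Their adjusted p over the alternatives ran from 0.00041 to 0.0928 for the sum and from 0.00143 to 0.12 for Csf2rb, which was also lost without both replicate 1 libraries (0.0531). Csf2rb2 kept its call throughout, from 7.71e-06 to 0.0435.

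Csf2ra, the chain that gives the GM-CSF receptor its specificity, did not pass. It stood at 73.0, 148 and 126 CPM in activated replicates 1 to 3, against 120, 132 and 111 CPM in non-activated ones, so activated replicate 1 was the lowest of all and activated replicate 2 the highest. The fold was 0.954 with a 95% interval of 0.671 to 1.36 (edgeR adjusted p = 0.853). Its log2 value turned to 0.16 without activated replicate 1 and did not pass there (edgeR adjusted p = 0.3). The summed beta chains were 18.5, 12.0 and 13.5 times as high as Csf2ra per length (ratio of TPM) in activated replicates 1 to 3, and 17.9, 16.9 and 19.7 times in non-activated ones, ranges that overlapped.

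**Figure D3:**
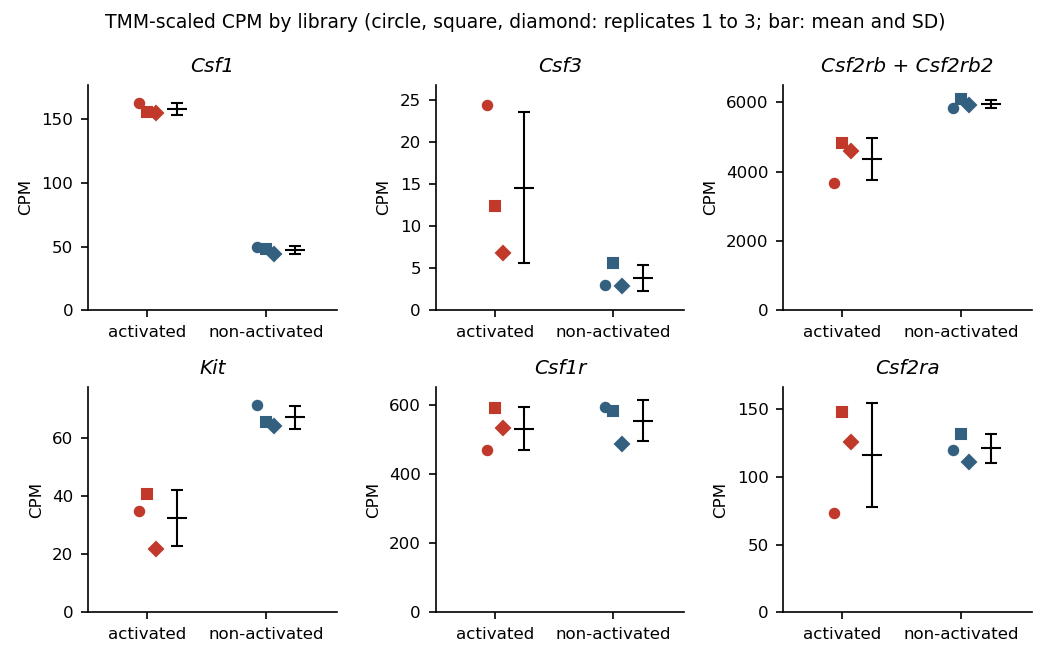
TMM-scaled CPM of 5 of the genes and of the summed beta chains in each library on linear axes from 0, with the mean and SD of 3 libraries beside the points. Csf1 and Csf3 are higher, the summed beta chains and Kit lower, and Csf1r and Csf2ra overlapping between activated and non-activated libraries.

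Kit, the receptor of stem cell factor, fell to 34.8, 40.7 and 21.8 CPM in activated replicates 1 to 3, against 71.5, 65.4 and 64.3 CPM in non-activated ones. The groups did not overlap, and the fold was 0.482 with a 95% interval of 0.354 to 0.658 (log2 -1.05 ± 0.20, SE; edgeR adjusted p = 0.00505). Kit passed under all 13 alternatives (adjusted p 7.69e-07 to 0.0197). In activated replicate 3, the lowest by counts, RSEM also estimated a shorter mean transcript, 3140 nt against 3955 to 4599 nt in non-activated libraries and 4473 to 4551 nt in the other activated ones. Per length that library was therefore level with the others, at 11.2 TPM beside 11.3 and 13.8 TPM, against 22.5 to 25.5 TPM in non-activated cells. Of the 10 markers of mast cells and basophils, 8 were under 1 CPM in every library, among them Cpa3, Fcer1a and Ms4a2, and Tpsb2, Tpsab1 and Cma1 had no count. The other 2 moved apart, with the transcription factor Gata2 at 5.17 ± 1.0 against 17.0 ± 2.88 CPM and the histidine decarboxylase Hdc at 133 against 70.5 CPM, and the list summed to 124 to 162 CPM in activated and 70.3 to 106 CPM in non-activated libraries.

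Flt3, the receptor through which dendritic cells develop, did not pass. It stood at 20.1, 13.6 and 24.9 CPM in activated replicates 1 to 3, against 21.2, 14.3 and 23.4 CPM in non-activated ones. The same-numbered libraries lay close to each other, and the fold was 0.994 with a 95% interval of 0.68 to 1.45 (edgeR adjusted p = 0.985). Progenitor markers, of cells that carry FLT3 and KIT, summed to 11.8 to 14.8 CPM in activated and 10.4 to 13.4 CPM in non-activated libraries. Mpo, Hoxa9, Gata1, Prtn3 and Ctsg of that list of 8 were under 1 CPM in every library, Ctsg with no count. Cd34 was higher, at 10.3 against 2.15 CPM (edgeR adjusted p = 0.000528), while Meis1 was lower, at 2.26 against 7.01 CPM (0.0147). Myb, also of that list, was lower at 0.782 against 2.0 CPM (edgeR adjusted p = 0.0403), a call that several alternatives lost. The part of progenitors in the Kit and Flt3 values was not tested.

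Csf3r, the G-CSF receptor, was near the floor of the data, at 1.86, 2.5 and 1.67 CPM in activated replicates 1 to 3, against 2.66, 1.09 and 0.851 CPM in non-activated ones. The groups overlapped, and the fold of 1.3 had a 95% interval of 0.645 to 2.62 (log2 0.38; edgeR adjusted p = 0.573). Its log2 value moved to 1.04 without non-activated replicate 1 (edgeR adjusted p = 0.0875) and 1.08 without both replicate 1 libraries (0.114), and to 1.00 on log2 of TPM plus 0.1 (limma adjusted p = 0.142), none of which passed. RSEM placed these reads on shorter transcripts in activated libraries (2603, 2185 and 1915 nt) than in non-activated ones (3160, 3160 and 3481 nt), an estimate from few reads. Expected counts of Csf3r, like those of Csf1r, were also not whole in any of the 6 libraries, so how many of the reads belong to Csf3r is uncertain. Of 10 neutrophil markers, 8 were under 1 CPM in every library, among them S100a8, S100a9 and Ly6g, and Retnlg had no count. The list summed to 92.9 to 143 CPM in activated and 166 to 211 CPM in non-activated libraries, nearly all of it Mmp8 (118 against 182 CPM).

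**Figure D4:**
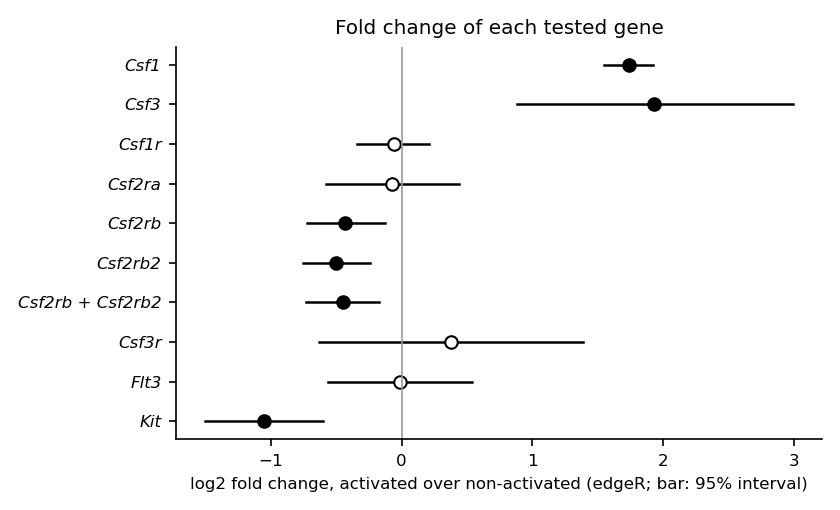
log2 fold change, activated over non-activated, of the 9 tested genes and of the summed beta chains from edgeR, with 95% intervals and filled points for an adjusted p under 0.05. Csf1 (1.74) and Kit (-1.05) have intervals away from 0, whereas those of Csf1r, Csf2ra, Csf3r and Flt3 span it.

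Apart from Il3ra, other ligands and chains of these receptors had group means of 8.16 CPM or less, and none of those tested passed. Of 5 further ligands, Flt3l (6.89 ± 1.86 against 8.16 ± 1.22 CPM; edgeR adjusted p = 0.465) and Kitl (2.99 ± 0.957 against 3.71 ± 0.868 CPM; 0.484), the ligands of FLT3 and KIT, were tested and did not pass. Il34, the second ligand of CSF1R, and Il5 had at most 0.0408 CPM. Il3ra, the IL-3 receptor alpha chain, stood at 17.3 ± 4.15 against 17.9 ± 2.74 CPM (edgeR adjusted p = 0.874). Pdgfrb, of the same kinase class as CSF1R, stood at 1.46 ± 0.476 against 0.781 ± 0.386 CPM (0.169), and Il5ra and Pdgfra had too few reads.

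Downstream of the receptors, most signalling genes did not pass, and 5 of the 11 STAT5 targets were higher, beside 15.9% of all genes tested. In the list of 15 receptor-proximal signalling genes, 2 were higher, 1 lower and 12 did not pass, with a median log2 fold change of -0.07, against 0.01 over all genes tested. That is 20.0% called, below the 27.6% of all genes tested. This list and those below were chosen with earlier results of these data known, so their shares are descriptions and not tests. With the replicate number as a block, 5 of these 15 passed, the additions being the exchange factor Sos1 (log2 0.27, edgeR adjusted p = 0.0181) and the kinase Mapk3 (-0.28, 0.0323). The block also raised the number of genes called over the whole table, to 2787 higher and 2397 lower, from 2216 and 1632. Stat5a, which encodes a STAT activated by GM-CSF, was 2.09-fold higher (651 ± 62.7 against 312 ± 30.5 CPM; edgeR adjusted p = 0.000313), and the phosphatase Ptpn11 1.68-fold higher (223 ± 4.62 against 133 ± 10.1 CPM; 0.000338). The adaptor Gab2 was lower, at 110 ± 9.71 against 197 ± 9.15 CPM (0.00029). Stat5b, a paralog of Stat5a in sequence, stood at 236 ± 8.59 against 230 ± 16.3 CPM (0.809), and how reads that match each paralog were split between them is uncertain. Jak2, the kinase bound to the beta chain, stood at 875 ± 76.4 against 1014 ± 42.8 CPM (0.159).

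Of 10 negative regulators, 2 were higher, 3 lower and 5 did not pass (median -0.14), so 50.0% were called, against 27.6% of all genes tested. The replicate block, which called more genes over the whole table as well, raised this to 8 of 10. It added the adaptor gene Dok1 (log2 0.30, edgeR adjusted p = 0.00817), its relative Dok2 (-0.40, 0.0454) and Ptprc, which encodes the phosphatase CD45 (-0.22, 0.036). The phosphatase Ptpn6 was 2.08-fold higher (132 ± 6.93 against 63.3 ± 2.95 CPM; edgeR adjusted p = 6.05e-05), and the other was Adam17. The ubiquitin ligase Cblb was lower, at 94.1 ± 26.0 against 204 ± 20.5 CPM (0.00309), as were the lipid phosphatase Inpp5d, at 92.1 ± 11.5 against 131 ± 11 CPM (0.00913), and the phosphatase Ptpn1, at 264 ± 10.3 against 335 ± 6.44 CPM (0.0095). The Inpp5d call was lost on the deposited TPM, within adjusted p of 0.000179 to 0.118 over all alternatives.

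Of 11 STAT5 target genes, 5 were higher, 1 lower and 5 did not pass (median 0.79), so 54.5% were called, against 27.6% of all genes tested. The replicate block, which called more genes over the whole table as well, added the growth regulator Myc (log2 0.78, edgeR adjusted p = 0.0446). The survival gene Bcl2l1 was 4.87-fold higher (347 ± 53.2 against 71.1 ± 6.82 CPM; edgeR adjusted p = 1.65e-05), the cyclin Ccnd2 3.89-fold (1647 ± 107 against 424 ± 78.9 CPM; 6.02e-05) and the IL-2 receptor chain Il2ra 3.08-fold (707 ± 128 against 229 ± 22.2 CPM; 0.000138). The feedback inhibitors Socs1 and Socs3 were each 1.73-fold higher. With limma on TPM, Ccnd2 had a log2 fold change of 1.11, beside 1.96 from the counts, and did not pass (adjusted p = 0.12, with 6.1e-42 to 0.12 among the alternatives). Cish, a feedback inhibitor induced by STAT5, stood at 200 ± 42.2 against 227 ± 20.5 CPM (0.399), and the kinase Pim1 at 679 ± 40.0 against 749 ± 46.2 CPM (0.312). The cytokine Osm was lower, at 87.4 ± 11 against 118 ± 9.57 CPM (0.0195), which did not pass with non-activated replicate 1 (0.0665) or both replicate 1 libraries (0.0558) left out; its lowest adjusted p was 0.00156.

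Of 13 transcription factors of these lineages, 12 were tested, 3 were higher, 2 lower and 7 did not pass (median -0.01), so 41.7% were called, against 27.6% of all genes tested. Irf4, needed for a branch of dendritic cells, was 2.46-fold higher (414 ± 23.8 against 168 ± 3.48 CPM; edgeR adjusted p = 2.07e-05) and Irf8 1.54-fold higher (0.00862). Gfi1, a repressor active in granulocyte development, was 3.95-fold higher from a low level (2.94 ± 1.07 against 0.749 ± 0.401 CPM; 0.0136), and did not pass on the deposited TPM (log2 0.81 with a pseudocount of 1, beside 1.98 from the counts), nor with non-activated replicate 3 or both replicate 1 libraries (log2 1.46) left out (adjusted p between 0.000334 and 0.0845). Gata2 was lower, at the levels given beside Kit (edgeR adjusted p = 0.000363), as was the progenitor factor Myb, at 0.782 ± 0.326 against 2.0 ± 0.644 CPM (0.0403). Myb lost its call under 7 alternatives (0.0147 to 0.978 over all), and its log2 fold change of -1.34 shrank to -0.03 and -0.39 on the deposited TPM with pseudocounts of 1 and 0.1. Spi1, which encodes PU.1, an activator of Csf1r, stood at 130 ± 12.9 against 134 ± 6.29 CPM (0.754).

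**Figure D5:**
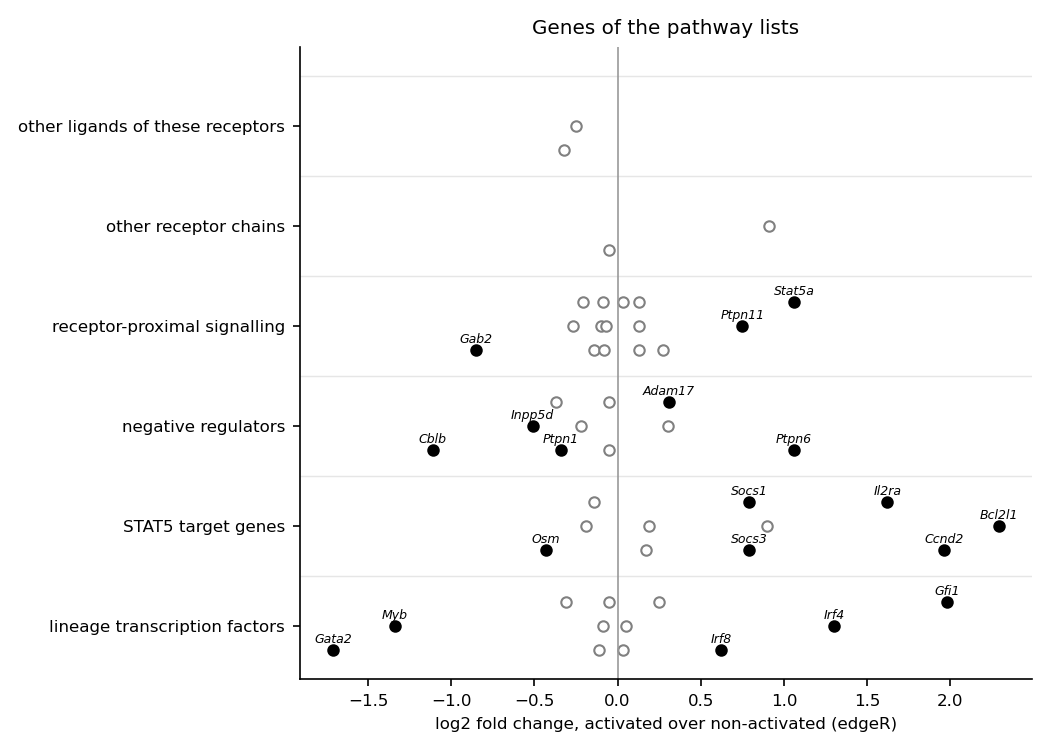
log2 fold change, activated over non-activated, of the tested genes in 6 lists of ligands, chains, signalling genes, targets and transcription factors, with filled, named points for an edgeR adjusted p under 0.05. Of 52 tested genes 12 are higher and 7 lower, beside 15.9% higher and 11.7% lower among all genes tested. Gata2 (-1.71) and Bcl2l1 (2.29) are at the ends.

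Profiles like those of the 5 called genes were sought as the smallest root mean square difference of centred log2 CPM over the 6 libraries. The nearest to Csf1 were Galnt10 (0.0571), the interferon-inducible GTPase Gbp5 (0.102) and Plpp1 (0.104). Bin2 (0.0179) was nearest to Csf2rb, followed by Ift80 (0.0225) and Aldh16a1 (0.0266). For Csf2rb2 these were Vamp2 (0.0403), the Fc receptor gene Fcgr3 (0.0408) and Ubtd1 (0.0426). Kit was nearest to the transcription factor gene Klf11 (0.113), and Gm16062 (0.143) and Scn3a (0.16) were at low levels. Csf3 had no profile as close, with the phosphatase gene Dusp8 at 0.291, Hr at 0.311 and Gm12744 at 0.336.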

How the data were processed

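RNA was measured in 3 activated and 3 non-activated libraries; the 4 ATAC samples were not analysed here. The labels' protocols give 200 ng of RNA per NEBNext Ultra library and single reads of 60 nt, with strand not stated. Per the file headers, the authors deposited RSEM gene tables with an expected count, TPM and FPKM for each gene and a mean transcript length. The submitters' processing notes name GRCm38; which aligner served these tables is not stated there. Gene IDs were matched to symbols for 41597 of 41813 genes.

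Expected counts were rounded and tested with edgeR 4.0.16 (R 4.3.3): filterByExpr, TMM, glmQLFit and glmQLFTest by group, Benjamini-Hochberg adjustment, threshold 0.05, 13946 genes. The SE is the log2 fold change over the root of F. The common biological coefficient of variation was 16.9%. The test was checked on simulated counts with 200 changed genes. Those counts were drawn independently for each library, so the check does not cover the correlation of same-numbered libraries given below. Alternatives were DESeq2 1.42.0, its size factors in edgeR, no low-count filter, limma 3.58.1 on log2 of the deposited TPM plus 1 or plus 0.1, a replicate block, and leaving out each library; leaving out both replicate 1 libraries was added after seeing the data. The deposited FPKM served 1 alternative for the Csf2rb2 share.

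The titles number replicates alike in each group. Deviations from group means correlated at 0.40, 0.31 and 0.19 for same-numbered libraries, each above 0.1, so the libraries were taken as paired. What a number marks is not labelled. Only the replicate block and the paired Csf2rb2 shares used this pairing. The main edgeR test, with its folds, SEs, adjusted p-values and list counts, was unpaired. No replicates agreed within sampling noise (chi-square per degree of freedom 15.0 to 71.1). P-values measure the spread between these libraries, and count intervals cover counting error alone.

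The genes, the 6 pathway lists and the marker lists were chosen with earlier results of these data known. Named were the 10 genes, genes of the lists, and the 3 nearest profiles of each called gene. Cd28, Icos, Cd40lg, the genes that the block added, the macrophage markers and the dendritic cell markers beyond Itgax and H2-Ab1 were named after their values were seen. The marker lists of NK cells (0.441 to 1.26 CPM summed in activated, 0.609 to 1.26 CPM in non-activated libraries), B cells (2.86 to 5.84 and 1.3 to 3.24 CPM) and fibroblasts and endothelium (6.38 to 9.89 and 9.92 to 11.1 CPM) were low, and the dendritic cell list summed to 14787 to 16981 and 12147 to 14047 CPM. Some listed genes are not reported here and were left out of every list's count and sum.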

Additional observations from a re-analysis of the deposited data

How the results depend on the processing

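Csf1, Csf2rb2 and Kit kept their direction and their call under all 13 alternatives, and Csf1r, Csf2ra, Csf3r and Flt3 passed under none. With the replicate number as a block, Csf2rb had a log2 fold change of -0.44 (edgeR adjusted p = 0.01) and no call among the 9 tested genes changed. In that fit 15 genes of the pathway lists were higher and 10 lower, against 12 and 7 without the block. Over the whole table it called 2787 genes higher and 2397 lower, against 2216 and 1632. On the deposited TPM, with either pseudocount, Csf2rb at -0.45 and the summed beta chains at -0.47 no longer passed. Leaving out 1 library at a time gave log2 values of -0.52 to -0.32 for Csf2rb, -0.54 to -0.35 for the sum, 1.31 to 2.31 for Csf3, 0.08 to 1.04 for Csf3r, -0.30 to 0.16 for Csf2ra, -0.23 to 0.17 for Flt3, -0.19 to 0.12 for Il3ra, -0.01 to 0.09 for Stat5b and -0.12 to 0.01 for Spi1. In those fits 1 to 2 of the 9 genes were called higher and 2 to 3 lower, and genes called lower over the whole table numbered 1061 to 1673, the lowest without non-activated replicate 2. Without both replicate 1 libraries, 1 of the 9 was called higher, Csf3 stood at 1.16 and Csf2rb at -0.34 without passing, and uncalled values changed sign for Csf1r (0.05), Csf2ra (0.15), Flt3 (0.01), Il3ra (0.02), Stat5b (-0.03) and Spi1 (0.05). Stat5b also stood at -0.02 on the TPM. The cause of these changes was not tested, beyond the fewer samples in each such fit. Of the 19 called pathway genes, 13 passed under every alternative. The low-count filter kept Csf2 out of the main test; with its few counts the SE without that filter was 1.43 on the log2 scale.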
